A study of Schizosaccharomyces pombe with 6 samples.

Results

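The genes described here are the nuclear-encoded subunits of the respiratory chain and of the ATP synthase of fission yeast (Schizosaccharomyces pombe), with the factors named after the same complexes. They were chosen by gene name alone. A gene was taken when the authors' table names it atp, cox, qcr or sdh followed by a number, or cyt1, rip1 or cyc1, and when it does not lie on the mitochondrial genome. This gave 52 genes of the 6988 features in the count table. By role they are 34 subunits (cytochrome c included) and 18 factors for assembly or mitochondrial gene expression. The choice used no measured value, but it was made with earlier results of these data known.

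Poly(A)+ RNA was sequenced with a stranded kit from 2 h- strains of fission yeast grown to log phase in YES, a rich medium. The strain AGP259 carries pla1-Y86D::kanMX, in which an active-site residue of the nuclear poly(A) polymerase Pla1 is changed. The strain AGP257 carries pla1-WT::kanMX, so both strains hold the kanMX drug marker at pla1. Each strain gave 3 libraries, called replicate experiments by the submitters, who do not mention separate cultures. The p-values therefore rest on the spread among these libraries, and that spread may be technical only. Library totals lay between 17594840 and 21849845 counts. The pla1 mRNA was at 46.5 to 48.1 CPM (counts per 1000000 of the scaled library total) in pla1-Y86D and 35.8 to 37.6 CPM in pla1-WT, and the level of this mRNA does not check a point mutation. The h- label stands for M cells. In both strains 5 M-cell genes (mam1, mam2, mfm1, mfm2 and mfm3) were detected and summed to 53.8 to 54.7 CPM in pla1-Y86D and 64.2 to 71.7 CPM in pla1-WT, and 2 P-cell genes, map2 and map3, to 13.1 to 15.2 CPM in pla1-Y86D and 16.2 to 17.7 CPM in pla1-WT, with none of the 7 at 0.

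The respiratory chain of the inner mitochondrial membrane passes electrons to oxygen. Succinate dehydrogenase takes them from succinate to ubiquinone, the cytochrome bc1 complex from ubiquinol to cytochrome c, and cytochrome c oxidase from cytochrome c to oxygen. The last pair of complexes pumps protons, and ATP synthase lets the protons back to make ATP. Fission yeast lacks the large proton-pumping NADH dehydrogenase and feeds electrons in through single-chain NADH dehydrogenases. Cytochrome bc1, the oxidase and the ATP synthase each combine nuclear-encoded subunits with a few made inside the organelle. The 6 mitochondrially encoded genes that share these names (atp6, atp8, atp9, cox1, cox2 and cox3) were listed at 0 in all 6 libraries, like the other mitochondrial features, so only the nuclear-encoded side is described.

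The mRNAs of the complexes stood differently in pla1-Y86D. Cytochrome bc1 mRNAs were lower, 8 of 9 by the test, beside 41.1% of all features and 46.8% of protein-coding features called lower. Cytochrome c mRNA also fell. Succinate dehydrogenase was split, with the flavoprotein mRNA higher and the other 2 subunit mRNAs lower. Of 10 oxidase factors 6 rose (5 or 6 in the alternatives), beside 40.1% of all features called higher. The oxidase subunits went both ways, and the ATP synthase subunits had a median log2 fold change of 0.0039. All 52 genes passed the filter on low counts, and the smallest count of any of them in a library was 92. By edgeR's quasi-likelihood test, with an adjusted p under 0.05 as the threshold, 17 were higher and 23 lower in pla1-Y86D, and 12 were not called. Called in either direction were thus 76.9% of members, beside 81.2% of all features tested and 82.4% of protein-coding features. In these bulk libraries fewer cells with an mRNA and less of it per cell cannot be told apart.

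These shares were near those of the whole table. Of the members, 32.7% were called higher, beside 40.1% of all 6267 features tested and 35.6% of protein-coding features. Called lower were 44.2% of members, beside 41.1% of all features and 46.8% of protein-coding features. The members' changes were small. The median size of their log2 fold changes was 0.186, beside 0.306 over all features tested and 0.268 over protein-coding features. At 1.5-fold or more, 1 member was higher and 3 were lower, that is 1.92% and 5.77% of members. Beside these stood 15.9% and 8.84% of all features and 9.61% and 8.89% of protein-coding features. The member counts depend on the processing, since cox13 (1.49-fold) and atp11 (0.669-fold) lay just short of that line. Over the alternatives log2 fold changes ran from 0.55 to 0.63 for cox13, -0.64 to -0.53 for atp11 and -0.66 to -0.58 for qcr2. No member reached 2-fold in either direction by edgeR, DESeq2 or limma-voom, whereas 9.02% of all features were called at least 2-fold higher and 2.38% at least 2-fold lower (4.54% and 2.08% of protein-coding features). The libraries of the strains did not overlap for 16 members that were higher and 22 that were lower, 30.8% and 42.3% of members. Over all features these shares were 40.4% and 41.5%, and over protein-coding features 36.1% and 47.0%.

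**Figure D1:**
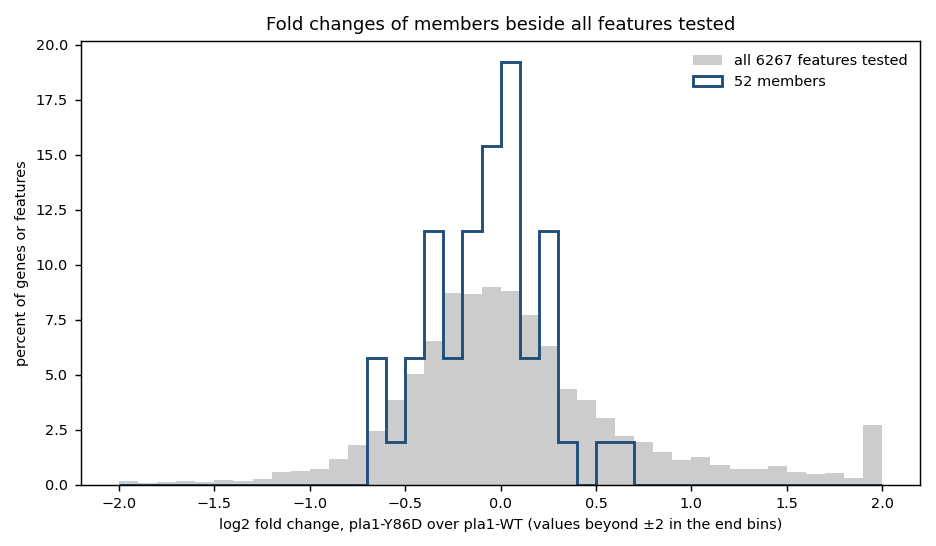
The histogram gives the percent of genes or features in each bin of log2 fold change (pla1-Y86D over pla1-WT, bins of 0.1), with all 6267 features tested in grey and the 52 members as a dark outline. The members lie between -0.68 and 0.61, inside the wider spread of all features.

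**Figure D2:**
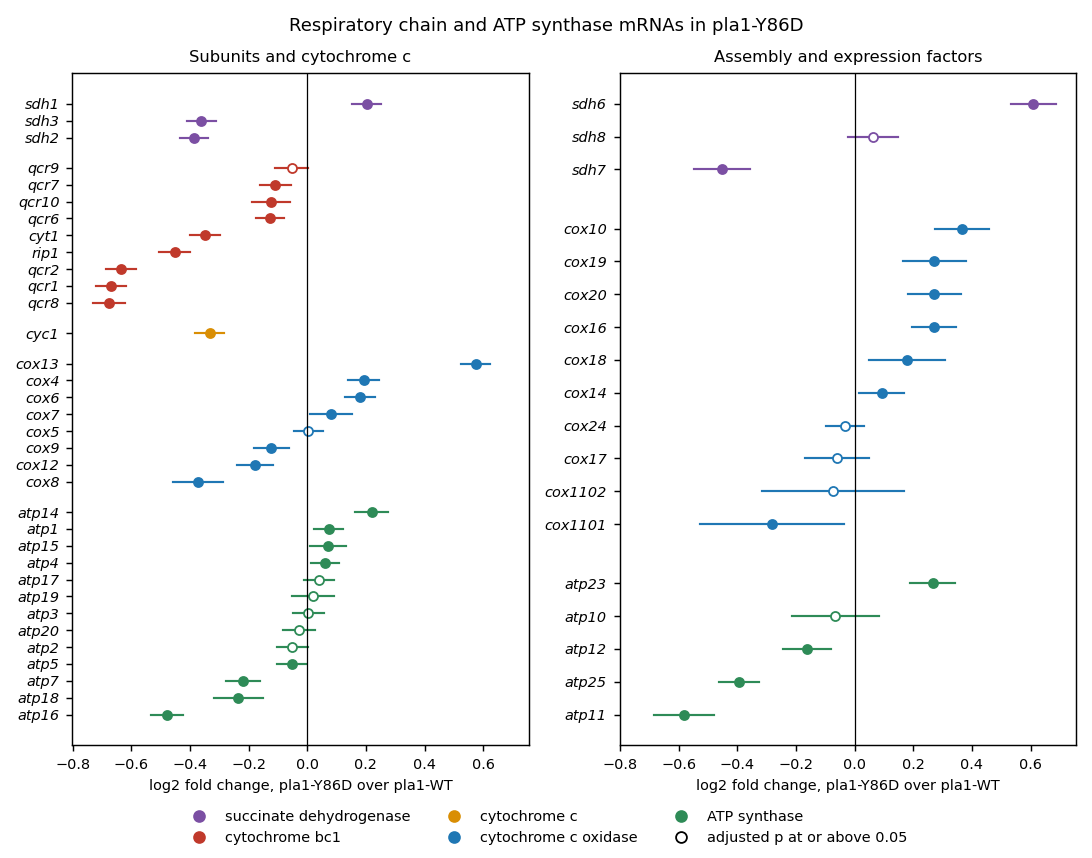
Each point is the log2 fold change of a gene (pla1-Y86D over pla1-WT) with its 95% interval, coloured by complex, subunits on the left and factors on the right. Open points have an adjusted p at or above 0.05. The cytochrome bc1 points all lie below 0, from -0.68 to -0.05, while the ATP synthase subunits gather around 0.

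Cytochrome bc1 is built around cytochrome b, made in the mitochondrion, with the nuclear-encoded cytochrome c1 (cyt1) and the Rieske iron-sulphur protein (rip1) as its other electron carriers, the core proteins Qcr1 and Qcr2 on the matrix side and several small subunits. The largest decrease was in qcr8 (SPAC1782.07), a small subunit, which had 131, 131 and 129.6 CPM in pla1-Y86D and 205, 215 and 206 CPM in pla1-WT. The log2 fold change came to -0.68 (SE 0.027, with an adjusted p of 6.42e-22 by edgeR). The core protein gene qcr1 (SPBP23A10.15c) had 447, 451 and 441 CPM in pla1-Y86D and 690.1, 728 and 710.0 CPM in pla1-WT, a log2 fold change of -0.67 (SE 0.025). In the authors' table the product of qcr1 is also the beta subunit of the peptidase that trims imported mitochondrial proteins. The other core protein gene, qcr2 (SPCC613.10), had 154, 158 and 155 CPM in pla1-Y86D and 237, 245 and 243 CPM in pla1-WT, a log2 fold change of -0.63 (SE 0.025). In all 3 genes every pla1-Y86D library lay below every pla1-WT library. In the main analysis these are the 3 members that fell by at least 1.5-fold.

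The electron carriers of cytochrome bc1 fell by less. The rip1 mRNA (SPBC16H5.06) had 245, 246 and 250.4 CPM in pla1-Y86D and 338, 351 and 326 CPM in pla1-WT, a log2 fold change of -0.45 (SE 0.026). The cyt1 mRNA (SPBC29A3.18) had 379.9, 378 and 368 CPM in pla1-Y86D and 474, 497 and 463 CPM in pla1-WT, a log2 fold change of -0.35 (SE 0.026). For both genes the libraries of the strains did not overlap. Smaller decreases were found in qcr6, the hinge protein gene, at -0.13, in qcr10, whose product sits beside Rip1, at -0.12, and in qcr7 at -0.11, with edgeR adjusted p-values from 1.06e-05 to 0.000627. The remaining subunit gene, qcr9, had 161, 162 and 166 CPM in pla1-Y86D and 165, 176 and 167 CPM in pla1-WT. Its libraries overlapped, and its log2 fold change of -0.05 (95% interval -0.11 to 0.0028, edgeR adjusted p = 0.0745) was not called. It was called without pla1-WT replicate 1 (log2 fold change -0.074, edgeR adjusted p = 0.0224). The call was also made with total-count scaling (edgeR adjusted p = 0.0165) and without the filter on low counts (edgeR adjusted p = 0.0455). Summed over the 9 genes, cytochrome bc1 mRNAs came to 2252, 2259 and 2236 CPM in pla1-Y86D and 2882, 3027 and 2907 CPM in pla1-WT, so the mutant's mean was 76.5% of the wild-type strain's. The number of these genes called lower was 8 or 9 in each of the 15 alternatives of the analysis, and none was called higher. In the main analysis 41.1% of all features and 46.8% of protein-coding features were called lower.

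Cytochrome c (cyc1, SPCC191.07), the mobile carrier between cytochrome bc1 and the oxidase, fell together with cytochrome c1. It had 555, 576 and 574 CPM in pla1-Y86D and 724, 716 and 707 CPM in pla1-WT, a log2 fold change of -0.33 (SE 0.025, with an adjusted p of 2.31e-14 by edgeR). The libraries of the strains did not overlap. The ratio of cyc1 to cyt1 mRNA, per kilobase of coding sequence, was 4.26 ± 0.139 in pla1-Y86D and 4.22 ± 0.141 in pla1-WT (SD, n = 3 each), closer than the spread between libraries.

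**Figure D3:**
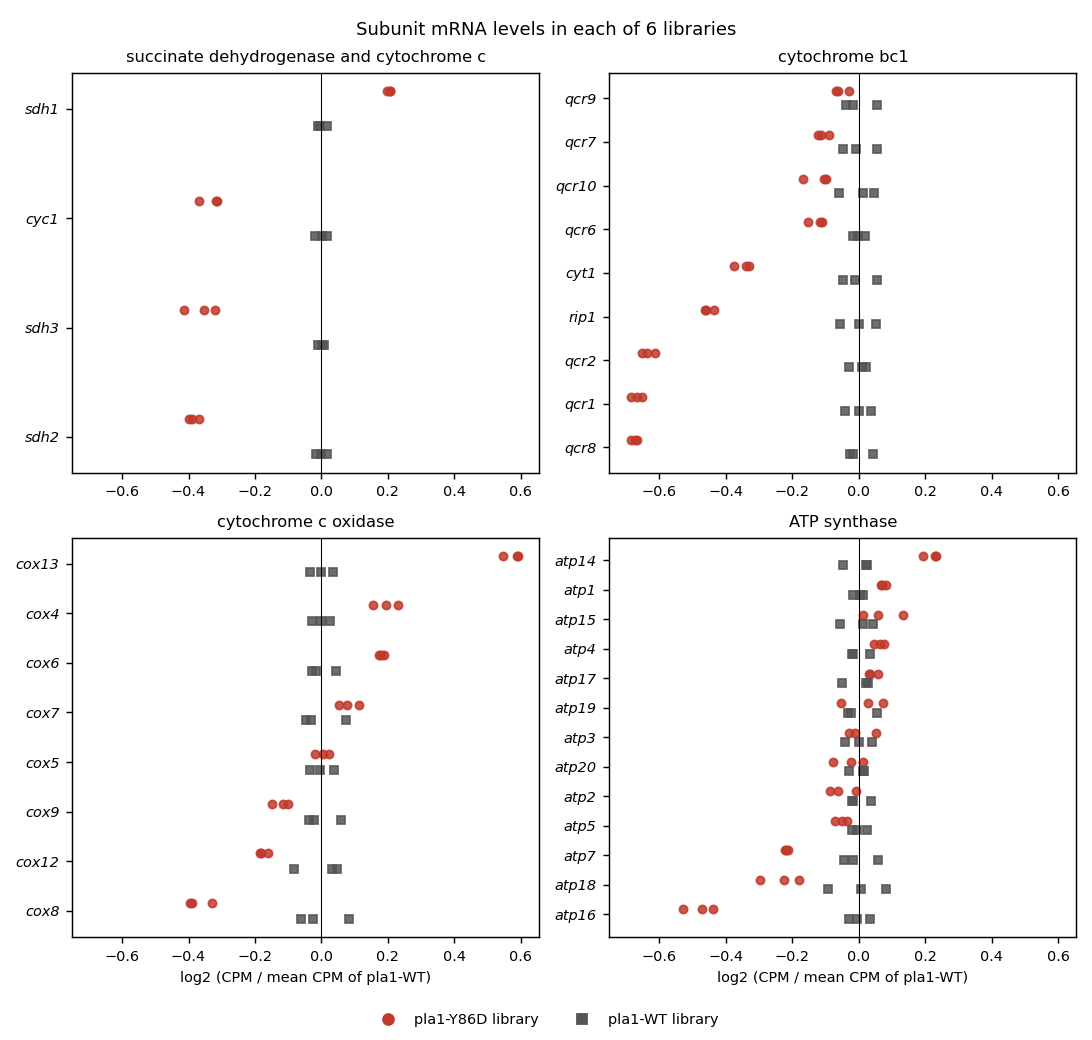
Each marker is the level of a subunit mRNA in a library, as log2 of its CPM over the mean CPM of the pla1-WT libraries, with pla1-Y86D as red circles above pla1-WT as grey squares for each gene. The red circles of qcr8, qcr1 and qcr2 stand apart to the left of the grey squares, those of cox13 to the right, and those of most ATP synthase genes overlap with the squares or lie close to them.

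Succinate dehydrogenase has a catalytic part made of the flavoprotein Sdh1, which binds succinate, and the iron-sulphur protein Sdh2, held to the membrane by Sdh3 and a second anchor. The sdh1 mRNA (SPAC1556.02c) rose. It had 963, 963 and 958 CPM in pla1-Y86D and 844, 829 and 832 CPM in pla1-WT, a log2 fold change of 0.20 (SE 0.024, with an adjusted p of 2.49e-09 by edgeR). The sdh2 mRNA (SPAC140.01) had 256, 254 and 259 CPM in pla1-Y86D and 331, 338 and 335 CPM in pla1-WT, a log2 fold change of -0.39 (SE 0.024). The sdh3 mRNA (SPCC330.12c) had 244, 260.4 and 254 CPM in pla1-Y86D and 326, 323 and 325 CPM in pla1-WT, a log2 fold change of -0.36 (SE 0.025). Sdh1 and Sdh2 are present in equal numbers in the enzyme, and their mRNAs moved in opposite directions. Per kilobase of coding sequence, the ratio of sdh1 to sdh2 mRNA was 1.62, 1.63 and 1.59 in pla1-Y86D libraries and 1.09, 1.05 and 1.07 in pla1-WT libraries. That of sdh1 to sdh3 was 1.07 ± 0.0367 in pla1-Y86D and 0.722 ± 0.00416 in pla1-WT (SD, n = 3 each). On this scale, which uses the coding length only, sdh1 was above sdh3 in the mutant and below it in the wild-type strain.

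The factors of succinate dehydrogenase were split as well. The LYR-family genes sdh6 and sdh7, whose budding yeast counterparts help Sdh2 acquire its iron-sulphur clusters, went opposite ways. The sdh6 mRNA (SPAC664.12c) had 80.6, 80.2 and 84.1 CPM in pla1-Y86D and 53.6, 54.9 and 52.2 CPM in pla1-WT. Its log2 fold change was 0.61 (SE 0.038, with an adjusted p of 1.47e-16 by edgeR). That was the largest increase of the 52 members and, in the main analysis, the only increase of at least 1.5-fold. The sdh7 mRNA (SPBP23A10.03c) had 33.0, 32.4 and 33.7 CPM in pla1-Y86D and 47.1, 45.4 and 43.3 CPM in pla1-WT, a log2 fold change of -0.45 (SE 0.047). For sdh8, whose budding yeast counterpart binds Sdh1, the log2 fold change of 0.06 (95% interval -0.022 to 0.15, edgeR adjusted p = 0.164) was not called.

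Cytochrome c oxidase has a catalytic core made in the mitochondrion, surrounded by the nuclear-encoded subunits measured here. Of 8 subunit mRNAs, 4 were higher, 3 lower and 1 not called, with a median log2 fold change of 0.04. The cox13 mRNA (SPCC1739.09c, subunit VIa) stood apart, with 398, 411 and 409.8 CPM in pla1-Y86D and 267, 279 and 272 CPM in pla1-WT. The log2 fold change came to 0.58 (SE 0.024, with an adjusted p of 3.75e-21 by edgeR). The cox4 mRNA (SPAC1296.02) had 200.1, 205 and 195 CPM in pla1-Y86D and 172, 175 and 178 CPM in pla1-WT, a log2 fold change of 0.19 (SE 0.026). The cox6 mRNA (SPAC1B2.04) had 212, 213 and 210.4 CPM in pla1-Y86D and 183, 193 and 185 CPM in pla1-WT, a log2 fold change of 0.18 (SE 0.025). For these 3 genes every pla1-Y86D library lay above every pla1-WT library. The increase of cox7 was smaller, at 0.08 (edgeR adjusted p = 0.0339), and its libraries overlapped. Its call was lost without pla1-Y86D replicate 2 or 3 or pla1-WT replicate 1 or 3 (edgeR adjusted p from 0.0518 to 0.178). The call was also absent by DESeq2 (adjusted p = 0.102) and with total-count scaling (edgeR adjusted p = 0.128).

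The decreases among oxidase subunits were led by cox8 (SPAC24C9.16c, subunit VIII), with 52.7, 50.3 and 50.5 CPM in pla1-Y86D and 63.4, 70.1 and 65.0 CPM in pla1-WT, a log2 fold change of -0.37 (SE 0.042). The cox12 mRNA (SPCC1442.08c, subunit VIb) had 149, 147 and 146 CPM in pla1-Y86D and 157, 170.4 and 172 CPM in pla1-WT, a log2 fold change of -0.18 (SE 0.030). The cox9 mRNA (SPCC1259.05c, subunit VIIa) had 139, 138 and 135 CPM in pla1-Y86D and 147, 156 and 145 CPM in pla1-WT, a log2 fold change of -0.12 (SE 0.029). None of the 3 overlapped between the strains. The cox5 mRNA, with 322, 317 and 326 CPM in pla1-Y86D and 314, 329 and 320.4 CPM in pla1-WT, had a log2 fold change of 0.0031 (95% interval -0.046 to 0.053, edgeR adjusted p = 0.909). The ratios of cox13 to cox8 and to cox12 set the most increased subunit gene against the 2 most decreased, so they are only a description. Per kilobase of coding sequence, cox13 stood to cox8 at 4.03 ± 0.17 in pla1-Y86D and 2.09 ± 0.0616 in pla1-WT, and to cox12 at 1.82 ± 0.0469 in pla1-Y86D and 1.08 ± 0.0381 in pla1-WT (SD, n = 3 each).

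Among the 10 oxidase factors, 6 were higher, 1 lower and 3 not called, beside 40.1% of all features called higher. By DESeq2, with total-count scaling, and without pla1-Y86D replicate 2 or 3 or pla1-WT replicate 1 or 3, the number higher was 5. The cox10 mRNA (SPBC365.02c), for the enzyme that starts the synthesis of haem a from haem b, had 47.1, 48.1 and 48.5 CPM in pla1-Y86D and 36.6, 36.2 and 38.7 CPM in pla1-WT. The log2 fold change came to 0.37 (SE 0.045, with an adjusted p of 4.59e-09 by edgeR). The cox19 mRNA (SPCC1672.04c, a copper chaperone in the authors' table) had 33.2, 34.6 and 32.7 CPM in pla1-Y86D and 28.2, 27.3 and 27.7 CPM in pla1-WT, a log2 fold change of 0.27 (SE 0.052). The cox20 mRNA (SPBC25H2.18), for an assembly protein that in budding yeast attends the Cox2 subunit, had 54.2, 57.6 and 51.9 CPM in pla1-Y86D and 43.2, 46.6 and 45.4 CPM in pla1-WT, a log2 fold change of 0.27 (SE 0.045). All 3 were free of overlap between the strains. Increases of similar or smaller size were found in cox16 (0.27), cox18 (0.18), a membrane insertase gene, and cox14 (0.09). The call of cox18 was lost without pla1-WT replicate 1 (edgeR adjusted p = 0.0707). That of cox14 was lost without pla1-Y86D replicate 2 or 3 or pla1-WT replicate 3 (edgeR adjusted p from 0.0648 to 0.104). The cox14 call was also absent by DESeq2 (adjusted p = 0.0969) and with total-count scaling (edgeR adjusted p = 0.097).

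The authors' table also calls cox16 and cox17 copper chaperone genes. Unlike cox16, cox17 was not called, with a log2 fold change of -0.06 (95% interval -0.17 to 0.048, edgeR adjusted p = 0.291). The genes cox1101 and cox1102 each encode a fusion of Cox11, which brings copper to the catalytic core in other organisms, with a mitochondrial ribosomal protein. Their coding sequences were identical at 99.87% of 2262 aligned bases in the RefSeq reference, so how reads were divided between them is uncertain, and both were at 5.11 to 7.47 CPM in the 6 libraries. The cox1101 mRNA had 6.36, 5.70 and 5.11 CPM in pla1-Y86D and 6.08, 7.15 and 7.47 CPM in pla1-WT, a log2 fold change of -0.28 (SE 0.12, with an adjusted p of 0.0326 by edgeR). Its libraries overlapped, and its call was lost without pla1-Y86D replicate 2 or 3 or pla1-WT replicate 2 or 3 (edgeR adjusted p from 0.0633 to 0.183). The call was absent by DESeq2 (adjusted p = 0.119) and with protein-coding features alone (edgeR adjusted p = 0.0807). For cox1102 the log2 fold change was -0.07 (95% interval -0.32 to 0.17), and for cox24, which acts in mitochondrial mRNA processing, it was -0.03 (95% interval -0.097 to 0.033). Neither was called.

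ATP synthase consists of the catalytic F1 head, a peripheral stalk and the membrane part Fo, to which the mitochondrial genome contributes. Its 13 nuclear-encoded subunit mRNAs had a median log2 fold change of 0.0039, with 4 higher, 4 lower and 5 not called. Summed, they came to 4158, 4267 and 4196 CPM in pla1-Y86D and 4226, 4375 and 4239.7 CPM in pla1-WT, groups that overlap. The head had 2 genes higher, 1 lower and 2 not called. The alpha subunit mRNA atp1 (SPAC14C4.14) had 775, 774 and 782 CPM in pla1-Y86D and 731, 746 and 740.2 CPM in pla1-WT, a log2 fold change of 0.07 (SE 0.024, with an adjusted p of 0.00682 by edgeR). The beta subunit mRNA atp2 (SPAC222.12c), the most abundant member, had 1299, 1349 and 1278 CPM in pla1-Y86D and 1339.8, 1391 and 1337 CPM in pla1-WT, and its log2 fold change of -0.05 (95% interval -0.10 to 0.0019, edgeR adjusted p = 0.0705) was not called. It was called without pla1-Y86D replicate 2, pla1-WT replicate 1 or pla1-WT replicate 3 (edgeR adjusted p from 0.0198 to 0.0352). The call was also made with total-count scaling (edgeR adjusted p = 0.00535) and without the filter on low counts (edgeR adjusted p = 0.0424). For the gamma subunit gene atp3 the log2 fold change was 0.0039 (95% interval -0.048 to 0.056).

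The head gene that fell was that of the delta subunit, atp16 (SPBC13E7.04), part of the rotating central stalk. It had 168, 175 and 179 CPM in pla1-Y86D and 241, 248 and 237 CPM in pla1-WT, a log2 fold change of -0.48 (SE 0.027, with an adjusted p of 7.45e-18 by edgeR). The libraries did not overlap. Per kilobase of coding sequence, atp1 stood to atp16 at 1.44, 1.38 and 1.36 in pla1-Y86D and at 0.943, 0.936 and 0.971 in pla1-WT. The epsilon subunit gene atp15 (SPBC31F10.15c), also of the central stalk, had 167, 173 and 182 CPM in pla1-Y86D and 159, 167 and 171 CPM in pla1-WT, a log2 fold change of 0.07 (SE 0.030, with an adjusted p of 0.0337 by edgeR). Its libraries overlapped, and its call was lost without pla1-Y86D replicate 2 or 3 or pla1-WT replicate 1 or 2 (edgeR adjusted p from 0.0516 to 0.297). The call was also absent by DESeq2 (adjusted p = 0.0918) and with total-count scaling (edgeR adjusted p = 0.146).

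The peripheral stalk had 2 genes higher and 2 lower. The atp14 mRNA (SPBC29A3.10c, subunit H) had 158, 162 and 162 CPM in pla1-Y86D and 140.2, 140.3 and 134 CPM in pla1-WT, a log2 fold change of 0.22 (SE 0.028). The atp7 mRNA (SPBC29A10.13, subunit D) had 150.0, 149.6 and 151 CPM in pla1-Y86D and 169, 182 and 173 CPM in pla1-WT, a log2 fold change of -0.22 (SE 0.028). Neither gene overlapped between the strains, and the changes were opposite and of nearly equal size. The stalk genes atp4 (0.06) and atp5 (-0.05) were near the threshold. The call of atp4 was lost without pla1-Y86D replicate 1 or pla1-WT replicate 1 or 3 (edgeR adjusted p from 0.0674 to 0.0807). It was also lost with total-count scaling (edgeR adjusted p = 0.145). The call of atp5 was kept in only 5 of 15 alternatives. It was lost without any single pla1-Y86D replicate and without pla1-WT replicate 2 or 3 (edgeR adjusted p from 0.0505 to 0.171). It was also lost by DESeq2 (adjusted p = 0.164) and upper-quartile scaling (edgeR adjusted p = 0.206). With protein-coding features alone the log2 fold change of atp5 was 0.0014. In the membrane part, atp18 (SPAC23C4.11, subunit J) had 66.2, 71.8 and 69.5 CPM in pla1-Y86D and 76.2, 86.1 and 81.6 CPM in pla1-WT, a log2 fold change of -0.23 (SE 0.041). The other genes of that part were not called, with log2 fold changes of 0.04 for atp17, 0.02 for atp19 and -0.03 for atp20 and 95% intervals between -0.083 and 0.093.

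Of 5 ATP synthase factors, 3 were lower, 1 higher and 1 not called, beside 41.1% of all features called lower and 40.1% higher. The chaperone gene atp11 (SPAC3A12.12), which in budding yeast binds the beta subunit before the head is assembled, had 35.4, 33.2 and 32.5 CPM in pla1-Y86D and 51.9, 52.7 and 46.6 CPM in pla1-WT. The log2 fold change came to -0.58 (SE 0.050, with an adjusted p of 1.82e-12 by edgeR). The atp25 mRNA (SPAC31A2.06), annotated by the authors as a mitochondrial polynucleotide adenylyltransferase, had 73.1, 72.8 and 72.3 CPM in pla1-Y86D and 95.4, 97.6 and 93.8 CPM in pla1-WT, a log2 fold change of -0.39 (SE 0.034). The atp12 mRNA (SPAC9.12c), for the chaperone that in budding yeast binds the alpha subunit, had 49.4, 50.5 and 51.9 CPM in pla1-Y86D and 56.8, 57.4 and 55.9 CPM in pla1-WT, a log2 fold change of -0.16 (SE 0.040). The peptidase gene atp23 (SPCC320.12) went the other way, with 64.2, 65.8 and 66.4 CPM in pla1-Y86D and 53.7, 54.7 and 55.1 CPM in pla1-WT, a log2 fold change of 0.27 (SE 0.038). These 4 genes did not overlap between the strains. The atp10 chaperone gene was not called (-0.07, 95% interval -0.21 to 0.082).

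Levels can be compared between genes only per length, here as CPM per kilobase of coding sequence. This length leaves out untranslated regions, and whether reads there were counted is not given in the sources used here. If they were, short coding sequences (201 bases in atp15) are raised more than long ones (1575 bases in atp2). The order of genes of unlike length is therefore approximate. Per kilobase, cyc1 (327 coding bases) was the highest member, at 1737 ± 35.3 in pla1-Y86D and 2188 ± 26.4 in pla1-WT (SD, n = 3 each). Among cytochrome bc1 subunits the levels ran from 121.9 (qcr2) to 812 (qcr9) in pla1-Y86D, 6.66-fold apart, and from 189 (qcr2) to 843 (qcr9) in pla1-WT, 4.45-fold apart. In that order qcr8, at 473 ± 3.20, came just after qcr10 (494 ± 13.4) in pla1-Y86D, whereas in pla1-WT, at 756 ± 20.3, it stood beside qcr7 (732 ± 26.5), within the spread of the libraries, and above qcr10 (538 ± 19.6). Among oxidase subunits cox13 was highest in pla1-Y86D, at 1042 ± 17.9, whereas in pla1-WT it was at 699 ± 16.4 and below cox9, at 858 ± 31.5. The lowest oxidase subunit was cox8 in both strains, at 258 ± 6.58 in pla1-Y86D and 334 ± 17.6 in pla1-WT. ATP synthase subunits spanned 3.03-fold in pla1-Y86D and 2.59-fold in pla1-WT. Their top pair was atp15 and atp2 in both strains, at 865 ± 36.2 and 831 ± 23.3 in pla1-Y86D, where their ranges over the libraries overlapped. In pla1-WT they were at 825 ± 28.9 and 861 ± 19.4, and the highest library of atp15 (849.06) was barely below the lowest of atp2 (849.18).

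**Figure D4:**
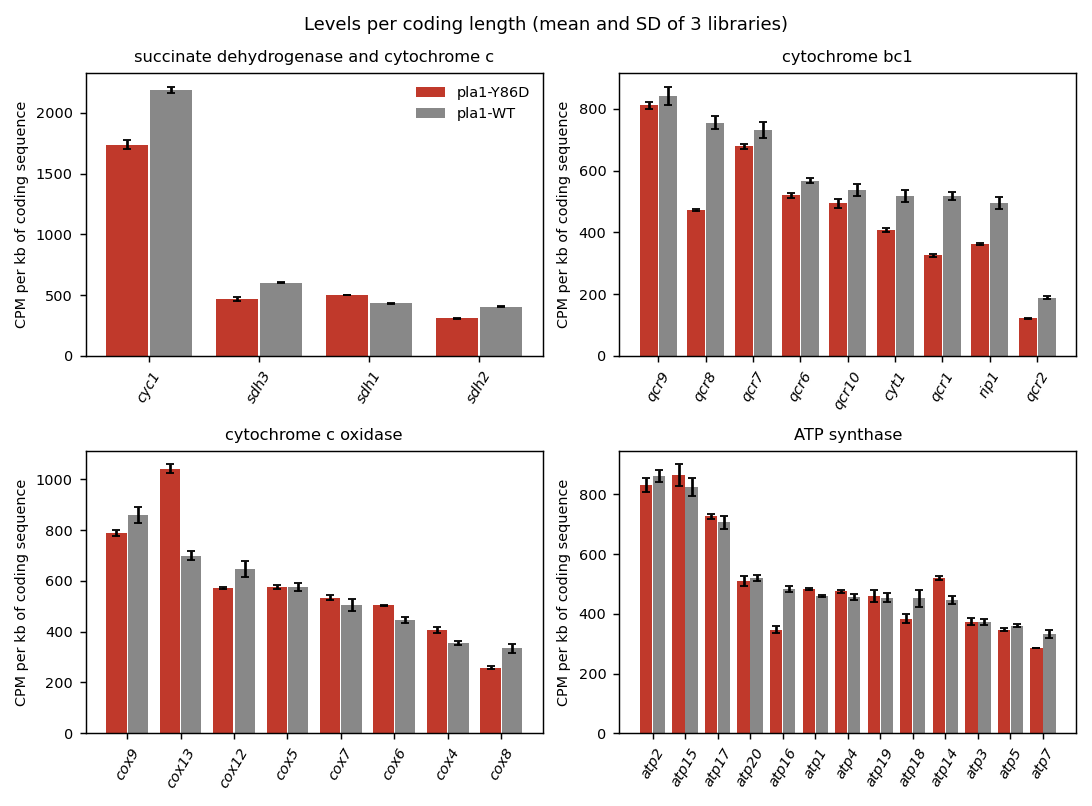
Bars give the mean level of each subunit mRNA in CPM per kilobase of coding sequence, pla1-Y86D in red left of pla1-WT in grey, with the SD of 3 libraries as error bars. Levels within a complex differ several-fold, and the red bars of qcr8, qcr1 and atp16 are shorter and that of cox13 taller than the grey bars beside them.

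The members' genes lie on chromosomes I (20), II (18) and III (14), and 35 of them have introns in the coding sequence. Grouping by introns was chosen after the values were seen and is given as a description. Of 17 members without coding introns, 12 were lower and 2 higher, with a median log2 fold change of -0.33. Of 35 members with them, 11 were lower and 15 higher, with a median of 0.02. Over all protein-coding features tested the median was -0.07 without coding introns, with 48.9% called lower and 34.8% higher. With coding introns it was -0.04, with 44.3% called lower and 36.6% higher. The members without introns that fell included qcr1, qcr2, rip1, cyc1, sdh2, sdh3 and atp16. The gene with the largest decrease, qcr8, has 3 coding introns, and cox13, the subunit gene with the largest increase, has 5.

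**Figure D5:**
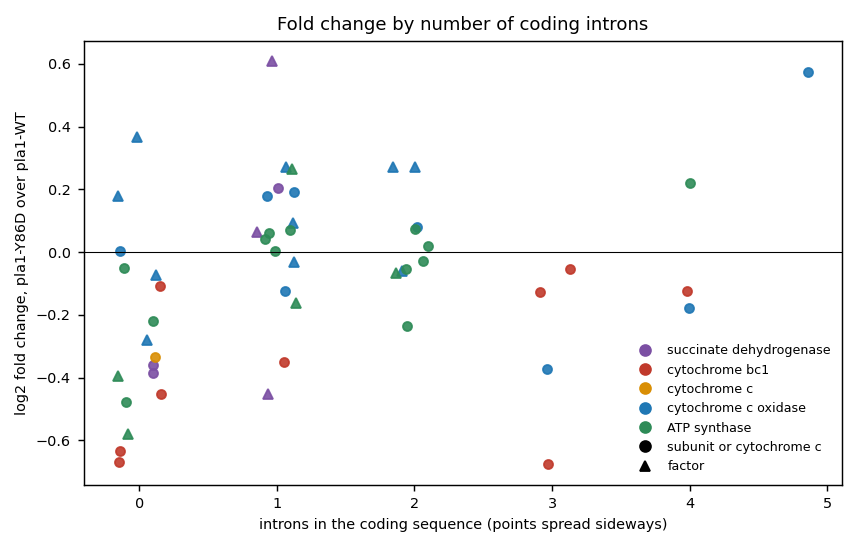
Each point is a member, placed by the number of introns in its coding sequence (spread sideways for view) and its log2 fold change (pla1-Y86D over pla1-WT). Circles are subunits or cytochrome c and triangles are factors. At 0 introns most points lie below 0, and at 1 intron the points lie on both sides, from -0.45 to 0.61.

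Several members share their locus with another annotated transcript, and whether reads were counted by strand is not given in the sources used here, so reads of both partners may be mixed. In the reference annotation 30 members overlap another counted feature, 26 of them on the opposite strand and 5 on the same strand. The whole of rip1 lies opposite ppa2, which had a log2 fold change of 0.12 while rip1 had -0.45. Nearly the whole of cox8 (99.8%) lies opposite mvd1, whose level of 230.3 ± 1.19 CPM in pla1-Y86D and 231 ± 10.3 CPM in pla1-WT exceeded that of cox8. Over 63.9% of its length sdh7 (-0.45) lies opposite pkr1 (-0.57). Similarly, atp12 (-0.16) lies opposite SPAC9.11 (-0.51) over 79.0%. Nearly the whole of atp10 (99.3%, log2 fold change -0.07) lies opposite gos1 (0.63). In pla1-WT gos1 was at 36.0 CPM and atp10 at 20.1 CPM. On the same strand qcr8 overlaps rex3-antisense-1 over 6.87% of its length (rex3-antisense-1 log2 fold change 1.44). In the same way qcr2 overlaps sen54 over 4.04% of its length (sen54 log2 fold change -0.69), and cox5 overlaps ctp1-antisense-1 over 7.18%, an RNA that rose by 2.88 on the log2 scale to 21.7 CPM in pla1-Y86D, against 2.93 CPM in pla1-WT. The part of these overlaps in the members' values was not tested.

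Other genes of the same pathway, from lists written from general knowledge, are given for context. Some subunits of these complexes carry other names. The second membrane anchor of succinate dehydrogenase, tim18, had 138, 141 and 137 CPM in pla1-Y86D and 184, 188 and 187 CPM in pla1-WT, and its log2 fold change of -0.43 had the sign of sdh2 and sdh3. The ATP synthase subunit E gene, tim11, fell by 0.52 on the log2 scale. The inhibitor of ATP synthase, inh1, rose to 195 ± 4.48 CPM in pla1-Y86D, against 129.6 ± 5.05 CPM in pla1-WT (log2 fold change 0.59). These 3 genes are described for their products, not for the size of their change.

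Of 9 tested dehydrogenase and carrier genes, 6 were higher and 3 lower, beside 40.1% of all features called higher and 41.1% lower. This list also holds the channel gene por1 and the inhibitor gene inh1, both higher. The external NADH dehydrogenase gene nde1, which brings electrons from cytosolic NADH into the chain, had 209.6, 211 and 207 CPM in pla1-Y86D and 496, 528 and 511 CPM in pla1-WT. Its log2 fold change of -1.29 (edgeR adjusted p = 5.52e-31) went further than that of any member, while the internal enzyme gene ndi1 was at 0.06 (edgeR adjusted p = 0.044). The ADP/ATP carrier gene anc1 fell to 543 ± 9.55 CPM in pla1-Y86D, against 772 ± 7.25 CPM in pla1-WT (log2 fold change -0.51). The outer-membrane channel gene por1 rose to 1025 ± 11.3 CPM in pla1-Y86D, against 599 ± 16.2 CPM in pla1-WT (log2 fold change 0.77), and etf1, of the electron transfer flavoprotein, rose by 0.70 on the log2 scale.

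Of 27 tested assembly factors outside the naming rule, 10 were higher and 11 lower, with a median log2 fold change of -0.05. Over all features, 40.1% were called higher and 41.1% lower. The haem lyase genes went opposite ways. The cytochrome c1 haem lyase gene cyt2 had 48.4, 48.3 and 46.4 CPM in pla1-Y86D and 81.4, 86.5 and 84.8 CPM in pla1-WT, a log2 fold change of -0.82, beside -0.35 for cyt1. The cytochrome c haem lyase gene cyc3 rose by 0.31 on the log2 scale, and cyc1 itself was at -0.33. The 2 largest increases of the list were those of fmc1 (0.77), a LYR-family assembly factor gene, and pet117 (0.48), of the oxidase. After cyt2, the next decreases were those of cbp7 (-0.59), a regulator of cytochrome b translation, and coa4 (-0.59), an oxidase assembly gene. Of the copper genes in this list, the copper chaperone gene sco1 was higher (0.22), and the copper-binding protein genes cmc1 (-0.35) and cmc2 (-0.27) were lower.

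Coenzyme Q synthesis, which makes the ubiquinone that links the dehydrogenases to cytochrome bc1, had 3 genes higher and 6 lower of 12, led by coq9 (0.52), dps1 (0.20), coq6 (-0.41) and abc1 (-0.25). Mitochondrial gene expression factors, needed for the subunits made in the organelle, had 15 of 21 lower and 2 higher (median log2 fold change -0.20). Among them the RNA helicase gene rpm2 (-0.93) and the exonuclease gene rpm1 (-0.92) fell most, while ppr8 (0.25) and ppr3 (0.09) rose. The list of protein import genes had 18 of 34 lower and 10 higher (median log2 fold change -0.09). They ran from tim22 (-0.82) and tom5 (-0.77) to tim8 (0.38) and tim9 (0.65). This list includes tim11, annotated as an ATP synthase subunit, and tim18, annotated in both an import complex and succinate dehydrogenase. Both were lower and are described above. Its genes mdm12, mdm34 and mmm1 are annotated as membrane tether and lipid transfer proteins. Of 9 regulators of CCAAT-box and iron-responsive genes, 2 were higher and 6 lower. The CCAAT-box subunit gene php3 (0.56) and the repressor gene php4 (0.80) rose, whereas the iron-sensing repressor gene fep1 (-0.57) and the corepressor gene tup12 (-0.66) fell. The other CCAAT-box subunit genes of the list, php2 (-0.35) and php5 (-0.16), were lower, so this complex was split. Beside these counts stand 40.1% of all features called higher and 41.1% called lower.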

How the data were processed

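The authors deposited raw whole-number counts for each feature. The submitters' processing notes list the tools HTSeq 0.10.0, HISAT2 2.1.0, SAMtools, DESeq and DESeq2, and the build ASM294v2. Not given in the sources used here are the counting's strand setting and annotation release and its handling of multiply aligned reads. The authors' DESeq2 comparison, per the file headers, gives signal columns (means of counts divided by size factors), log2 fold changes, a Wald score and p-values. It gave gene names and products here. By an adjusted p of 0.05 in the authors' deposited table, members called higher number 14 and lower 21, and 47 of 52 calls match those made here.

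Features were tested with edgeR 4.0.16 (R 4.3.3) after filterByExpr and TMM scaling, by a robust quasi-likelihood fit with strain as the only term over all 6 libraries. P-values were Benjamini-Hochberg adjusted over 6267 features. CPM are counts per 1000000 of the TMM-scaled total. Ratios and levels per kilobase are descriptions without a test. Standard errors come from the fold change and F statistic. Intervals are 95%. The procedure was tested on simulated data in which few features were changed, whereas 81.2% of features were called in the real data. That simulation therefore does not check the scaling or the false calls where most features change. Alternatives used DESeq2 1.42.0, limma-voom 3.58.1, other scalings and filters, a replicate block and each library left out.

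Of 6988 features, 6836 matched the RefSeq annotation of ASM294v3 by systematic identifier, all 52 members included. That assembly served only for coding lengths, introns, biotypes, overlaps and the identity of cox1101 and cox1102, and no coordinates are printed. Promoter sequences were not used here. Within strains, chi-square over its degrees of freedom was 1.63 to 4.83 for pairs of libraries, above sampling noise. That spread may still be technical only, and it does not show that the libraries come from separate cultures. Each library was counted as its own replicate.

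The members and lists were chosen with earlier results of these data known. In each complex the 3 largest increases and decreases among called subunits and among called factors are given by library, and of each list the 2 largest in each direction. Added after their values were seen were tim18, tim11, inh1, ndi1, cyc3, coa4, sco1, cmc1, cmc2, php2 and php5. Symbols that turned out to belong to other genes (imp1, imp2, dic1, cbp1, par1, rmn1) were left out of the lists, as was the member cox24. Of the M-cell and P-cell genes, the mat1 genes were not analysed here.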

Additional observations from a re-analysis of the deposited data

How the results depend on the processing

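Over 15 alternatives, 33 of the 40 member calls (21 lower, 12 higher) were kept in every one. The other 7 (atp4, atp5, atp15, cox7, cox14, cox18 and cox1101), all under 1.5-fold, lost their call in at least 1, and atp2, atp3, atp17, cox5, qcr9 and sdh8 gained one in at least 1. Leaving out each library in turn gave 13 to 16 members higher and 21 to 25 lower, and 2410 to 2469 features higher and 2491 to 2541 lower. Genes near 0 changed sign. With total counts as the scaling, log2 fold changes were -0.0035 for atp19, -0.019 for atp3 and -0.019 for cox5, and without a filter -0.0027 for atp3 and -0.0035 for cox5. With protein-coding features alone they were 0.0029 for atp2, 0.026 for atp20, 0.0014 for atp5, 0.022 for cox24 and 0.00079 for qcr9. Leaving out libraries, atp3 ranged from -0.020 to 0.023, cox5 from -0.015 to 0.021 and atp19 from -0.012 to 0.051. Of these genes only atp5 had been called, and the cause was not tested. Total-count scaling gave 13 members higher and 25 lower, protein-coding features alone 21 and 21, and DESeq2 14 and 21. Nothing in the labels says that the replicate numbers pair the libraries. Deviations of libraries with the same number correlated at -0.102, 0.033 and -0.061, and those with unlike numbers at -0.108 to 0.131. With 3 libraries per strain these values do not decide whether the libraries are paired. With the replicate block 17 members were higher and 22 lower, 2498 features were higher and 2559 lower, and cox1101 lost its call (edgeR adjusted p = 0.0501). All values are relative, and a shift common to most mRNAs would escape them. Low counts limit cox1101 and cox1102, at 92 or more per library. Whether they come from depth or from the handling of reads that fit both of these near-identical genes was not tested.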

Other observations

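Antisense RNAs annotated to the members atp18, atp3 and qcr10 were tested, and all 3 were higher, beside 40.1% of all features tested. Of protein-coding features 35.6% were called higher, so the share among the other features, antisense RNAs included, lay above 40.1%. An increase is thus not particular to these 3 RNAs. Of all 24 tested pairs of a member and a feature opposite it, the opposite feature was higher in 10 and lower in 8. The atp18 antisense RNA had 23.4 ± 1.10 CPM in pla1-Y86D and 18.2 ± 1.87 CPM in pla1-WT (SD, n = 3 each), higher by 0.36 on the log2 scale (edgeR adjusted p = 2.9e-05), while atp18 itself was at -0.23. The antisense RNAs of atp3 and qcr10 were at 1.57 ± 0.294 and 1.79 ± 0.140 CPM in pla1-Y86D, and at 0.784 ± 0.250 and 0.888 ± 0.253 CPM in pla1-WT. Their log2 fold changes were 1.03 and 1.02 (edgeR adjusted p = 0.00119 and 0.000564), with atp3 at 0.0039 and qcr10 at -0.12. The part of antisense reads in the members' counts was not tested.

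Genes that neighbour each other showed like and unlike changes. The adjacent genes qcr1 (-0.67) and tim18 (-0.43), of different complexes, were both lower. Next to each other, sdh6 was at 0.61 and the chaperone gene ssc1 at 0.09. These genes overlap on opposite strands, over 4.33% of sdh6. The far more abundant ssc1 mRNA was at 2280 CPM in pla1-Y86D and 2146 CPM in pla1-WT. The part of ssc1 reads in the sdh6 counts was not tested. The adjacent genes cox17 (-0.06) and sdh8 (0.06) were not called.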
